A study of Mus musculus with 48 samples.

Results

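The glucocorticoid receptor gene Nr3c1, the converting enzyme gene Hsd11b1 and 8 genes that glucocorticoids are known to induce, Fkbp5, Tsc22d3, Klf9, Zbtb16, Rasd1, Sgk1, Errfi1 and Mt2, were followed in mouse epidermis. They were found by symbol through their Entrez identifiers and make up 10 of the 24996 genes in the count table. All 10 passed the filter on low counts, which left 18044 genes for testing. Total RNA had been sequenced from epidermal cell suspensions of aged mice (80 to 90 weeks old) and of adult mice (18 to 25 weeks old), taken at Zeitgeber times 0, 4, 8, 12, 16 and 20 (ZT, hours after lights on). With 4 libraries for each age at each time, 24 aged and 24 adult libraries were compared in 12 groups. The labels name no treatment or mutation in either age, and they leave strain and sex unstated. Nor do they state that replicates come from different mice, so p-values here measure the spread between these samples, which may be technical.

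Glucocorticoids cross the cell membrane and bind the receptor encoded by Nr3c1, which waits in the cytoplasm in a complex with heat shock chaperones, moves to the nucleus and switches on genes near its binding elements. In mice, which are active in the dark, corticosterone in blood follows a daily rhythm that climbs towards the dark phase, and target genes such as Fkbp5 and Per1 follow it in many tissues. In skin the receptor restrains inflammation and keratinocyte proliferation, supports the barrier, and works beside local steroid synthesis and conversion.

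The DNA element of the receptor is an inverted repeat whose inner letters are ACANNNTGT, with the outer letters of each arm completing the short site TGTTCT. RefSeq promoters of the GRCm38.p6 build, 250 bases before to 50 after each annotated start, were searched on both strands for these letters, for the E-box CACGTG bound by clock proteins and for the D-box TTATGTAA. The table held 15 promoters for 7 of the genes, and Nr3c1, Zbtb16 and Rasd1 had no entry. The element letters were found in 2 of the 15 promoters, both of Sgk1, and in 6.85% of all 32851 promoters. The E-box was found in 1 promoter of Fkbp5 and 1 of Sgk1, and in 7.15% of all promoters. The D-box was in none of the 15, and in 0.938% of all. These 4 stretches are printed because they hold the receptor's letters, or the clock's, next to genes whose levels are compared here. The capitals mark the letters searched for.
Sgk1, start 5, receptor element letters 186 bases before the start: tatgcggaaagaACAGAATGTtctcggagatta
Sgk1, start 2, receptor element letters 127 bases before the start: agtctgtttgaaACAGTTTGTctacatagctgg
Tsc22d3, start 3, TGTTCT 185 bases before the start: ccgcattcgacaTGTTCTaagttctgagac
Fkbp5, E-box 169 bases before the start: gcaagggccagaCACGTGggcagcggtgaa
The Sgk1 stretches lie on the plus strand at chr10:21993692-21993724 and chr10:21978533-21978565, the Tsc22d3 stretch on the minus strand at chrX:140600690-140600719 and the Fkbp5 stretch on the minus strand at chr17:28486301-28486330. In the stretch of Sgk1 start 5 the letters TGTTCT overlap the element on both strands, so that the whole inverted repeat is present. TGTTCT alone was found in 4 of the 15 promoters, of Sgk1 and Tsc22d3, and in 19% of all promoters. A match is a description of letters, and none was tested for binding here.

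Across the day, 5 of the 10 genes were higher in aged than in adult epidermis and none was lower. The 5 were Fkbp5, Klf9, Zbtb16, Rasd1 and Errfi1, and Fkbp5 had the largest fold change of the 10. Of all genes tested, 17.0% were called higher and 16.2% lower in aged libraries (adjusted p under 0.05, edgeR). The median log2 fold change, aged over adult with each time weighted equally, was 0.26 over the 10 genes and 0.01 over all genes. At ZT20, late in the dark phase, 7 of the 10 were called higher, against 9.54% of all genes, and none lower, against 10.5%. In bulk samples, fewer cells of a type and less RNA per cell cannot be told apart. Aged ZT20 replicates 1 and 2 stood apart: each was among the 4 highest of the 48 libraries for 8 of the 10 genes. Without this pair 1 of the 10 was called higher at ZT20, against 1.58% of all genes, and none lower, against 0.951%. The pair is named for its levels of these same genes, and leaving it out shrinks the aged ZT20 group. Some loss of calls is thus built into that fit. Values of the 10 genes at ZT20 are therefore given with and without the pair.

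**Figure D1:**
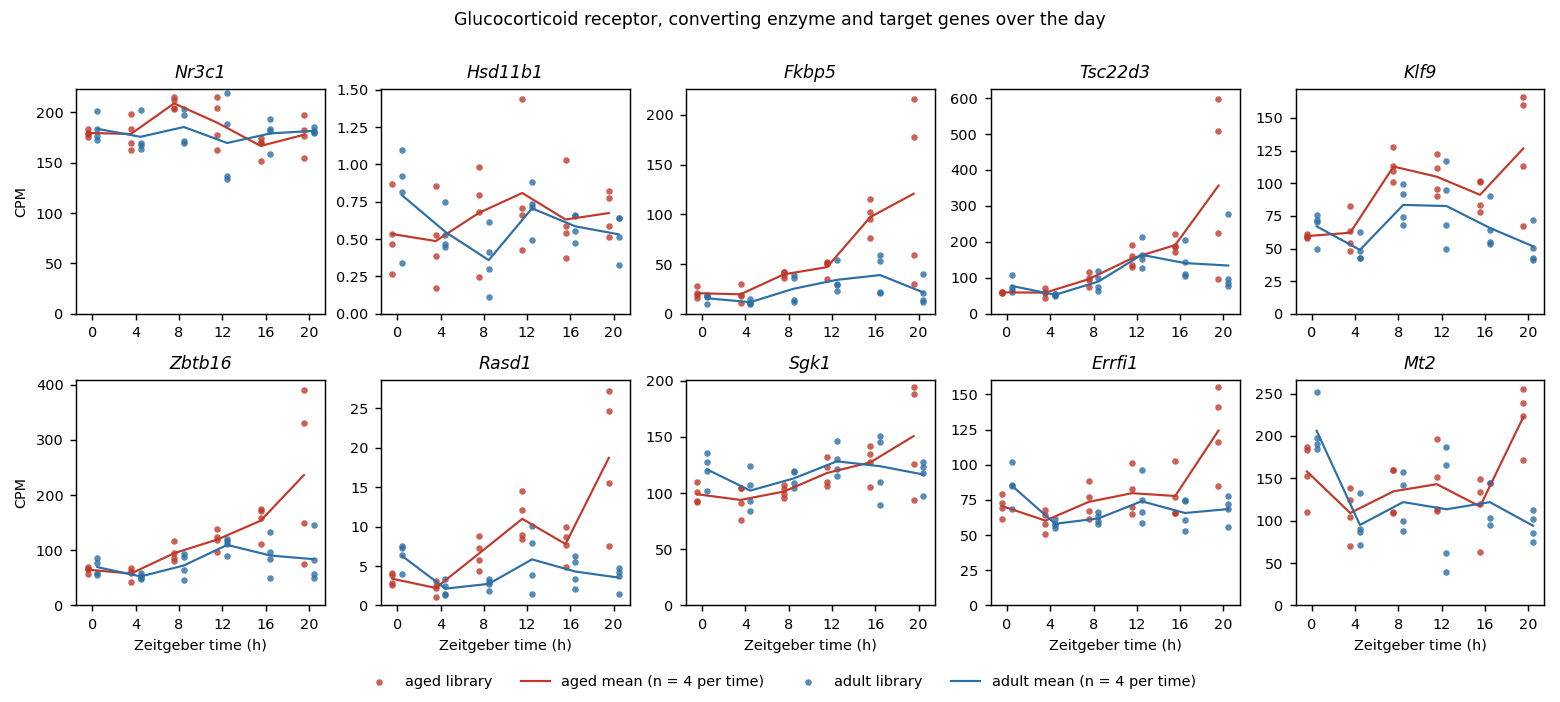
Level of each gene in CPM (y axis, linear, from 0) against Zeitgeber time in hours (x axis) in aged (red, left of each time) and adult (blue, right) epidermis; points are libraries and lines join group means (n = 4). Aged means of Fkbp5, Tsc22d3 and Zbtb16 were highest at ZT20, at 121, 356 and 236 CPM, while Nr3c1 stayed between 134 and 219 CPM in every library. These ZT20 means include the high aged replicates 1 and 2. As a mean of log2 CPM, aged Fkbp5 had 6.59 at ZT16 and 6.51 at ZT20.

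Nr3c1 did not pass the age test. It had 152 to 216 CPM (counts scaled by library size) in the 24 aged libraries, with a median of 180 CPM, and 134 to 219 CPM in the 24 adult libraries, with a median of 181 CPM. The groups overlapped at every time. The log2 fold change was 0.03 (SE 0.04; 95% interval -0.05 to 0.12; adjusted p = 0.604, edgeR). That interval leaves room for only small differences in either direction. At ZT20 the aged libraries had 176, 155, 182 and 198 CPM and the adult libraries 185, 181, 181 and 180 CPM, replicates 1 to 4 in order. The log2 fold change at ZT20 was -0.03 (SE 0.10), and 0.06 (SE 0.12) without the pair. The aged pair thus held no more receptor RNA than the other libraries of that time.

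Hsd11b1 encodes the enzyme that turns inert 11-dehydrocorticosterone back into corticosterone inside cells. It was near the lower limit of detection, with 5 to 65 counts per library among totals of 40761084 to 49229498. Aged libraries had 0.173 to 1.44 CPM (median 0.587) and adult libraries 0.112 to 1.09 CPM (median 0.583), and the groups overlapped at every time. The log2 fold change was 0.13 (SE 0.17; 95% interval -0.21 to 0.48; adjusted p = 0.582, edgeR), and a difference inside that interval was not detectable at this depth. The gene lies on chromosome 1 from 193221640 to 193264045 in RefSeq. In GENCODE, another annotation with other gene bounds, it shares 42442 bases with the laminin gene Lamb3 on the opposite strand. The kit marks strand, but the strand setting of the counting was not found in the labels, so Hsd11b1 and Lamb3 reads cannot be told apart with certainty.

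Fkbp5 encodes a co-chaperone that receptor activity induces and that in turn lowers the receptor's affinity for hormone. It lies on chromosome 17 from 28398753 to 28486149. GENCODE sets noncoding genes on the opposite strand over 9958 bases of Fkbp5, 1031 of Errfi1 and 749 of Mt2. These counts thus carry the same doubt about strand. Over all times Fkbp5 rose in aged epidermis by 1.01 on the log2 scale (SE 0.18; adjusted p = 3.3e-05, edgeR). The mean levels at ZT0, ZT4, ZT8 and ZT12 were 20.7, 19.6, 39.6 and 46.9 CPM in aged and 15.6, 11.7, 25.2 and 34.1 CPM in adult epidermis. The aged mean was above the adult mean at all of these times, although libraries of both ages overlapped at each of them. At ZT16 the aged libraries had 95.3, 115, 76.6 and 102 CPM and the adult libraries 21.0, 59.5, 21.8 and 53.4 CPM. All 4 aged libraries were above all 4 adult ones, and the fold change was 1.32 on the log2 scale (SE 0.43; adjusted p = 0.0864). Groups separated in this direction for 4.62% of all genes at ZT16. At ZT20 the aged libraries had 177, 216, 59.4 and 29.9 CPM and the adult libraries 11.6, 40.0, 20.7 and 13.4 CPM. Aged replicates 1 and 2 were far above the rest, replicate 3 was above all adult libraries and replicate 4 was below adult replicate 2. Fkbp5 rose at ZT20 by 2.49 on the log2 scale (SE 0.45; adjusted p = 2.5e-04), and its value without the pair was 1.06 (SE 0.43; adjusted p = 0.155). Without the pair Fkbp5 was called over all times (0.77, SE 0.16; adjusted p = 3.0e-04) and at ZT16 (1.33, SE 0.37; adjusted p = 0.0443).

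Zbtb16 (chromosome 9, 48651797 to 48836225) encodes the zinc finger repressor PLZF, and Tsc22d3 (chromosome X, 140539528 to 140600522) encodes GILZ, a leucine zipper protein that mediates anti-inflammatory effects of glucocorticoids. At ZT0, ZT4, ZT8, ZT12 and ZT16, mean Tsc22d3 levels were 59.6, 59.0, 96.3, 154 and 191 CPM in aged and 77.5, 52.9, 89.6, 164 and 141 CPM in adult epidermis. Mean Zbtb16 levels at the same times were 65, 57.7, 94.7, 119 and 154 CPM in aged and 69.5, 52.5, 72.4, 109.7 and 90.5 CPM in adult epidermis. At ZT0 aged replicates 2, 3 and 4 had less Tsc22d3 than every adult library, and neither gene was called at any of these times. At ZT20 Zbtb16 had 331, 391, 149 and 75.0 CPM in aged and 49.9, 145, 82.4 and 57.7 CPM in adult libraries. Tsc22d3 had 507, 599, 224 and 95.7 CPM in aged and 84.6, 278, 97.3 and 77.4 CPM in adult libraries. In both genes aged replicates 1 and 2 were the highest of the 8 libraries, and aged replicate 4 lay within the adult range. At ZT20 the log2 fold change was 1.5 for Zbtb16 (SE 0.32; adjusted p = 0.00158) and 1.41 for Tsc22d3 (SE 0.34; adjusted p = 0.00445). Without the pair it was 0.42 for Zbtb16 (SE 0.31; adjusted p = 0.432) and 0.25 for Tsc22d3 (SE 0.34; adjusted p = 0.694), so neither call remained. Over all times Zbtb16 rose by 0.47 (SE 0.13; adjusted p = 0.00495), and by 0.29 without the pair (SE 0.11; adjusted p = 0.0436). Tsc22d3 did not pass over all times, at 0.27 (SE 0.14; adjusted p = 0.124). It passed when aged ZT20 replicate 4 or adult ZT20 replicate 2 was left out, with an adjusted p of 0.0158 at the lowest. In the 8 libraries of ZT20 analysed alone, Zbtb16 and Tsc22d3 were not called.

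Klf9 (chromosome 19, 23141226 to 23168129) encodes a Krüppel-like factor that curbs keratinocyte proliferation and links glucocorticoids to the clock in human keratinocytes. At ZT20 it had 166, 160, 113 and 66.9 CPM in aged and 41.5, 71.9, 50.3 and 43.0 CPM in adult libraries. Aged replicates 1, 2 and 3 were above all adult libraries, and replicate 4 was just below adult replicate 2. Klf9 rose there by 1.29 on the log2 scale (SE 0.23; adjusted p = 2.1e-04), with 0.80 without the pair (SE 0.25; adjusted p = 0.0661). At ZT8 the aged libraries, at 101 to 128 CPM, all stood above the adult ones, at 68.3 to 99.7 CPM; the log2 fold change there was 0.44 (SE 0.22; adjusted p = 0.267), and 5.54% of all genes separated in this direction. Over all times Klf9 rose by 0.45 (SE 0.09; adjusted p = 2.5e-04), by 0.37 without the pair (adjusted p = 0.00168) and by 0.28 without any ZT20 library (adjusted p = 0.0208).

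Rasd1 encodes a small GTPase found as a dexamethasone-induced gene, and it lies on chromosome 11 from 59963181 to 59964944. At ZT20 it had 24.6, 27.3, 15.5 and 7.50 CPM in aged and 1.42, 3.76, 4.26 and 4.69 CPM in adult libraries. All 4 aged libraries were above all 4 adult ones, as in 12.3% of all genes at ZT20. Its rise at ZT20 was 2.40 on the log2 scale (SE 0.43; adjusted p = 2.4e-04). Rasd1 was the 1 gene of the 10 still called at ZT20 without the pair, at 1.70 (SE 0.47; adjusted p = 0.0436), in a fit where calls among all genes numbered 463, against 3616 with every library. At ZT8 the groups also separated, with 8.82, 5.79, 7.31 and 4.40 CPM in aged and 1.89, 2.94, 3.36 and 2.75 CPM in adult libraries, and the log2 difference was 1.26 (SE 0.43; adjusted p = 0.108). Groups separated in this direction for 5.54% of all genes at ZT8. At ZT0 the order was the other way, with 2.63, 2.85, 4.18 and 3.88 CPM in aged and 7.49, 3.99, 6.34 and 7.24 CPM in adult libraries. Aged replicates 1 and 2 and replicate 4 were below every adult library at ZT0, and the log2 fold change was -0.89 (SE 0.42; adjusted p = 0.217). Over all times Rasd1 rose by 0.77 (SE 0.17; adjusted p = 7.9e-04), and by 0.44 without the ZT20 libraries (SE 0.18; adjusted p = 0.0776), where it was no longer called.

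Errfi1 (chromosome 4, 150853796 to 150868889) encodes MIG6, a feedback inhibitor of the EGF receptor. At ZT20 it had 141, 155, 116 and 84.7 CPM in aged and 55.7, 77.8, 71.8 and 68.5 CPM in adult libraries, without overlap. Groups separated in this direction for 12.3% of all genes at ZT20. Errfi1 rose at ZT20 by 0.86 on the log2 scale (SE 0.16; adjusted p = 4.7e-04), with 0.55 without the pair (SE 0.18; adjusted p = 0.0870). Over all times Errfi1 rose by 0.21 (SE 0.07; adjusted p = 0.0149). Without the pair the rise over all times was 0.16 (adjusted p = 0.0662) and without ZT20 it was 0.08 (adjusted p = 0.453), and neither passed.

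Mt2 (chromosome 8, 94172618 to 94173567) encodes a metallothionein, a small metal-binding protein induced by glucocorticoids and by metals. At ZT20 it had 239, 223, 255 and 172 CPM in aged and 75.3, 85.9, 113 and 102 CPM in adult libraries, without overlap. Groups separated in this direction for 12.3% of all genes at ZT20. The highest aged library for Mt2 was replicate 3, outside the pair. Mt2 rose at ZT20 by 1.24 on the log2 scale (SE 0.31; adjusted p = 0.00587), with 1.18 without the pair (SE 0.37; adjusted p = 0.0723). At ZT0 aged libraries had 153, 110, 183 and 186 CPM and adult libraries 184, 191, 197 and 252 CPM, and the log2 difference was -0.38 (SE 0.31; adjusted p = 0.506). Over all times Mt2 did not pass, at 0.25 (SE 0.13; adjusted p = 0.131).

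Sgk1 encodes a kinase that regulates ion transport and is induced by glucocorticoids and mineralocorticoids. It lies on chromosome 10 from 21882184 to 21999903, and the promoter of its start 5 holds the whole inverted repeat given among the sequences. At ZT20 it had 188, 194, 125 and 94.1 CPM in aged and 97.2, 123, 127 and 118 CPM in adult libraries. The aged pair was above every adult library, and the other aged libraries lay within or below the adult range. Its log2 fold change there was 0.37 (SE 0.16; adjusted p = 0.0885), and -0.09 without the pair (SE 0.17; adjusted p = 0.785). Over all times it was -0.05 (SE 0.06; 95% interval -0.17 to 0.08; adjusted p = 0.610). Sgk1 was called at ZT20 when aged replicate 4 was left out (adjusted p = 0.0107).

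**Figure D2:**
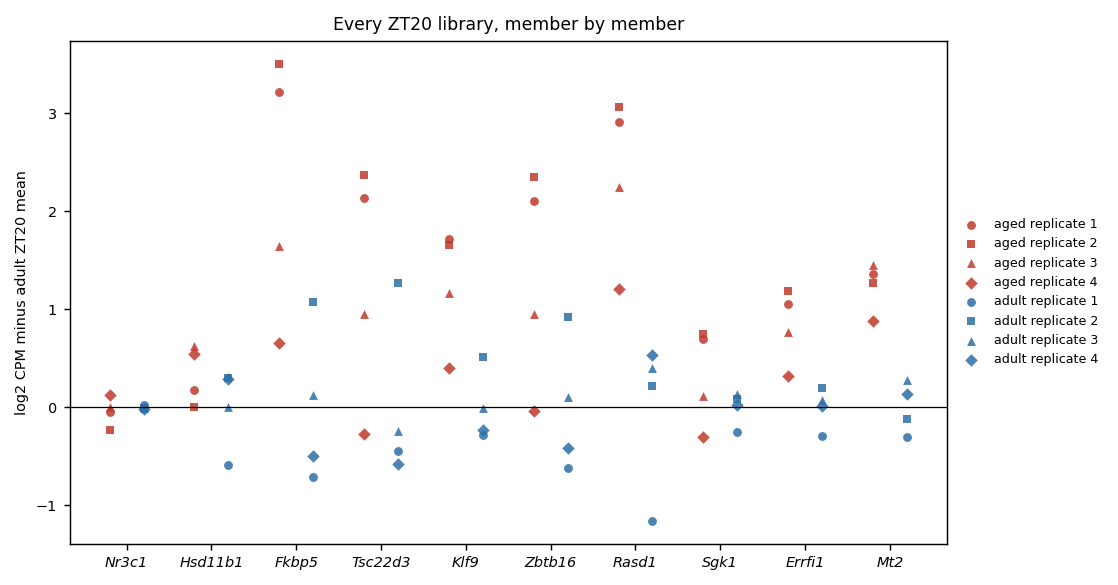
Every ZT20 library for each gene (x axis), as log2 CPM minus the mean of the adult ZT20 libraries (y axis); red symbols left are aged, blue symbols right adult, and the shape gives the replicate. Aged replicates 1 and 2 lead in Fkbp5, Tsc22d3, Klf9, Zbtb16, Rasd1, Sgk1 and Errfi1, while Nr3c1 is level and Mt2 is high in all 4 aged libraries.

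**Figure D3:**
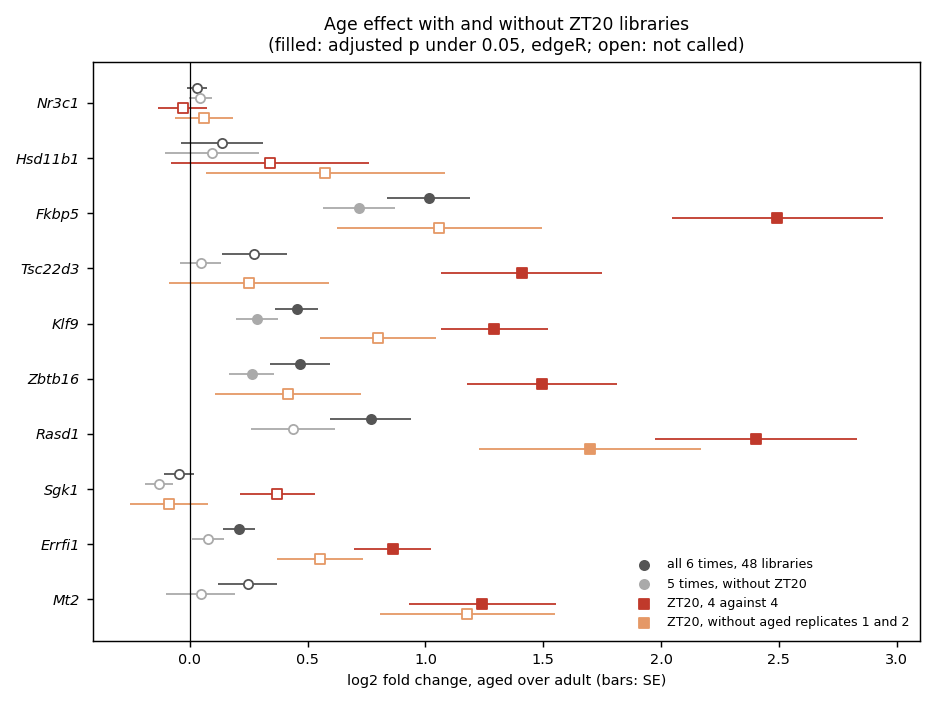
Log2 fold change of aged over adult (x axis, bars are SE) for each gene (y axis) over all 6 times, over 5 times without ZT20, at ZT20, and at ZT20 without aged replicates 1 and 2; filled symbols passed an adjusted p of 0.05 in edgeR. At ZT20 7 genes are filled with all libraries and 1, Rasd1, without the pair.

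Before ZT20 none of the 10 genes was called in edgeR at any single time. Of all genes tested, edgeR called 4.46% at ZT0, 0.632% at ZT4 and 2.19% at ZT8, and 1.10% and 1.97% at the next 2 times, ZT12 and ZT16. At an unadjusted p under 0.05 edgeR counted 1 gene at ZT0 (Rasd1), 0 at ZT4, 2 at ZT8 (Hsd11b1 and Rasd1), 1 at ZT12 (Rasd1) and 4 at ZT16 (Fkbp5, Klf9, Zbtb16 and Rasd1). Of all 18044 genes, 3716, 1348, 3633, 2742 and 3308 had such a p at these times in order, so that the counts among the 10 were at or below that share except at ZT16. DESeq2 called 1 gene at ZT16, Fkbp5, and 0 at the other 4 of these times; limma called 0 at each. The median log2 fold change of the 10 genes ran -0.28, 0.10, 0.32, 0.18, 0.34 and 1.27 through the 6 times in order. The corresponding median of all genes lay between -0.01 and 0.02. At ZT0 the log2 fold change was below 0 for every one of the 10 genes except Fkbp5 (0.40), and at ZT20 it was above 0 for every one except Nr3c1.

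Whether the age effect differed between times was tested jointly over the 6 times. Rasd1 was called, with an adjusted p of 0.0451, among 0.283% of all genes. An unadjusted p under 0.05 was found for 7 of the 10 genes and for 3087 of the 18044. Errfi1 came next at an adjusted p of 0.0888 and Klf9 at 0.118. The Rasd1 call was lost in 26 of the 48 fits that each left out 1 library, and its adjusted p was 0.304 without ZT20. DESeq2 called Klf9, Rasd1 and Errfi1, and limma called none. A contrast of the age effect at ZT20 with its mean at the other 5 times, chosen with earlier results known, called 5 genes with a larger rise at ZT20, against 0.837% of all genes. The log2 differences were 1.97 for Rasd1 (SE 0.46), 1.78 for Fkbp5 (SE 0.47), 1.36 for Tsc22d3 (SE 0.37), 1.01 for Klf9 (SE 0.25) and 0.78 for Errfi1 (SE 0.18). Zbtb16, at 1.23 (adjusted p = 0.0521), and Mt2, at 1.19 (adjusted p = 0.0553), just missed the threshold. DESeq2 called both of them in this contrast, and limma called neither. None of the 5 was called without the pair, when the values were 1.26 for Rasd1, 0.34 for Fkbp5, 0.21 for Tsc22d3, 0.52 for Klf9 and 0.47 for Errfi1. None was called either without aged ZT20 replicate 1 alone.

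A 24 h cosine passed the test in aged epidermis for 6 of the 10 genes, against 5.87% of all genes. Their fitted peaks lay between 16.1 and 18.1 h, in the dark phase. Fkbp5 had an amplitude (log2, mean to peak) of 1.24 with its peak at 16.5 h (adjusted p = 1.3e-04), Rasd1 1.22 at 16.1 h (adjusted p = 0.00634), Tsc22d3 1.16 at 16.8 h (adjusted p = 5.2e-05) and Zbtb16 0.87 at 16.7 h (adjusted p = 4.3e-04). Errfi1 had 0.34 at 18.1 h and Sgk1 0.30 at 17.3 h. Sgk1 thus varied with time in aged epidermis although it did not pass the age test. The Errfi1 call was lost without aged ZT20 replicate 1 or replicate 2 (adjusted p up to 0.0795), while Fkbp5, Rasd1, Tsc22d3, Zbtb16 and Sgk1 were called without the pair too. Klf9 did not pass with a cosine and all libraries (amplitude 0.40; adjusted p = 0.113). It passed with a cosine without the pair (adjusted p = 0.0130) and without the ZT20 libraries (adjusted p = 0.00513). It also passed with 1 mean per time in place of a cosine (adjusted p = 0.00219), a test that called 8.44% of all genes in aged epidermis, and its aged means were 113 CPM at ZT8, 91.1 CPM at ZT16 and 127 CPM at ZT20.

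In adult epidermis 2 of the 10 genes passed the cosine test, against 14.6% of all genes. Fkbp5 had an amplitude of 0.82 with its peak at 14.1 h (adjusted p = 0.0110) and Tsc22d3 0.77 at 15.3 h (adjusted p = 0.00707). Zbtb16 did not pass, with 0.43 at 14.8 h (adjusted p = 0.101); it passed in a fit of the adult libraries alone (adjusted p = 0.0482), without the aged ZT20 pair (0.0112), without the ZT20 libraries (0.00534) and without adult ZT16 replicate 1 (0.0499). With 1 mean per time, 5 of the 10 passed in adult epidermis, against 16.8% of all genes: Fkbp5, Tsc22d3, Klf9, Rasd1 and Mt2. In aged epidermis 7 of the 10 passed that test, against 8.44% of all genes. Mt2 and Rasd1 were highest in adult epidermis at ZT0, with 206 ± 30.8 and 6.27 ± 1.60 CPM (SD, n = 4). Adult Mt2 was about equally low at ZT4 and ZT20, with 95.0 ± 26.2 and 94.1 ± 16.7 CPM. In aged epidermis Mt2 and Rasd1 were highest at ZT20, with 222 ± 36.1 and 18.7 ± 9.01 CPM (SD, n = 4). Nr3c1 and Hsd11b1 passed no test of time in either age. The difference of the rhythms between ages was itself tested, and edgeR called none of the 10 genes, against 0% of all genes; 2 of the 10, Fkbp5 and Zbtb16, and 1326 genes had an unadjusted p under 0.05. DESeq2 and limma also called none of the 10. The larger count of rhythmic genes among these 10 in aged epidermis is therefore not shown to be a difference between ages. Among all genes the share that passed the cosine test was smaller in aged epidermis, at 5.87% against 14.6% in adult epidermis.

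**Figure D4:**
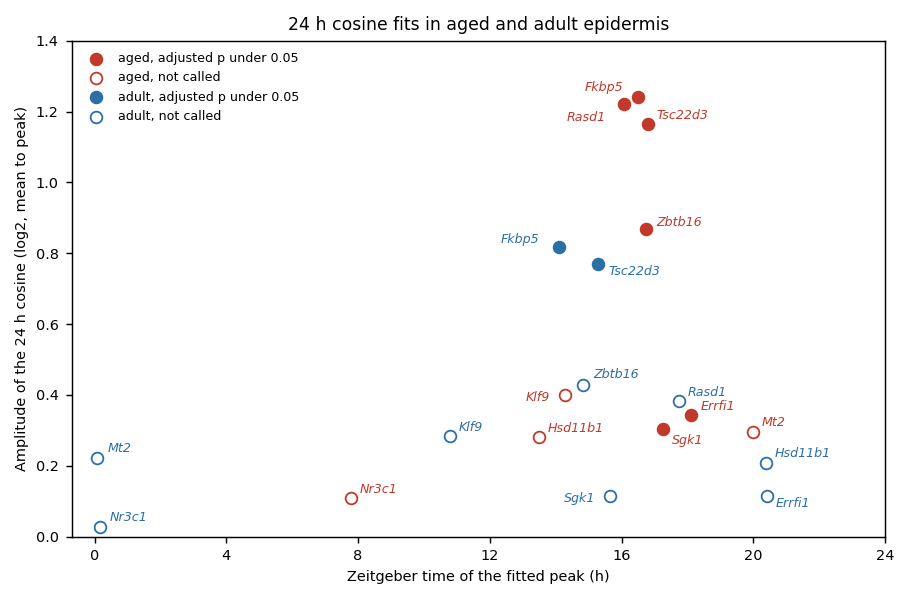
Amplitude of the fitted 24 h cosine (y axis, log2 from mean to peak) against its peak time (x axis, Zeitgeber hours) for the 10 genes in aged (red) and adult (blue) epidermis; filled points passed an adjusted p of 0.05. The 6 filled aged points lie between 16.1 and 18.1 h and the 2 filled adult points at 14.1 and 15.3 h.

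Among libraries of the same age and time, the genes did not all move together. Correlations here are Pearson r of log2 CPM over the 48 libraries after group means were removed; they are descriptions, and the points share library and depth. Fkbp5 and Zbtb16 had r = 0.83 (Spearman rho 0.73; r = 0.75 without the 2 libraries farthest from the Fkbp5 median), and Tsc22d3 and Zbtb16 0.81 (rho 0.58; r = 0.70 without 2 libraries). Fkbp5 and Tsc22d3 had r = 0.65 (rho 0.44, and r = 0.48 without the 2 libraries farthest from the Fkbp5 median). Klf9 varied with Errfi1 (r = 0.78), Rasd1 (0.76) and Mt2 (0.64), and Rasd1 with Mt2 (0.70) and Errfi1 (0.70). Klf9 also had 0.68 with Tsc22d3, 0.61 with Zbtb16 and 0.61 with Fkbp5, and Fkbp5 had 0.58 with Errfi1. Klf9 thus varied with these genes about as much as with Mt2. The values of Mt2 were lower with Fkbp5 (r = 0.11), Zbtb16 (0.16) and Tsc22d3 (0.24). The receptor gene had r = -0.21 with Fkbp5, -0.27 with Zbtb16 and -0.16 with Tsc22d3. With Mt2 it had 0.64 (0.52 without the 2 libraries farthest from the Nr3c1 median). It had 0.41 with Klf9 and 0.37 with Rasd1 (0.22 and 0.13 without those 2 libraries). Libraries with more Nr3c1 RNA thus did not hold more Fkbp5, Zbtb16 or Tsc22d3 RNA.

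The genes also differed in how they followed cell type markers. Nr3c1 had r = 0.81 with the summed level of 5 basal keratinocyte markers, 0.76 with 5 Langerhans cell markers and -0.62 with 5 markers of differentiated keratinocytes. Mt2 had 0.78, 0.75 and -0.63 with the same lists, and 0.76 with the mean level of 16 immediate early and dissociation genes, which cells switch on when a tissue is taken apart. Rasd1 and Errfi1 had 0.62 and 0.62 with the immediate early genes and 0.67 and 0.57 with 4 macrophage markers. Hsd11b1 had 0.80 with 5 T cell markers. For Fkbp5, Zbtb16, Tsc22d3 and Sgk1 the values with the basal, differentiated, Langerhans, macrophage and immediate early lists lay between -0.21 and 0.12. With other lists they were larger for some of these genes: Sgk1 had 0.50 with endothelial and 0.41 with fibroblast markers, Fkbp5 0.36 with sebocyte and 0.29 with T cell markers, and Tsc22d3 -0.29 with melanocyte markers. At ZT20 the summed differentiated keratinocyte markers had 4326, 4676, 4992 and 4709 CPM in aged and 8194, 9297, 5974 and 7296 CPM in adult libraries, without overlap. Groups separated in this direction for 13.7% of all genes at ZT20. At ZT16 the order of the medians was the other way, at 8291 CPM in aged and 5584 CPM in adult libraries. The summed Langerhans markers had 206, 109, 317 and 341 CPM in aged and 78.0, 96.4, 203 and 163 CPM in adult libraries, and the macrophage markers 20.5 to 36.4 CPM in aged and 7.55 to 21.3 CPM in adult libraries. The Langerhans medians at ZT0 and ZT16 were lower in aged libraries, at 155 and 71.2 CPM, against 332 and 185 CPM in adult ones. The basal markers at ZT20 had 8042 to 11538 CPM in aged and 6525 to 9140 CPM in adult libraries. No marker of these 4 lists was at 0 in either group. The 3 differentiated keratinocyte markers called at ZT20 were lower in aged libraries, none of the 5 Langerhans markers was called, and 1 of 4 macrophage and 1 of 5 basal markers were called higher. Without the pair 1 differentiated keratinocyte marker was called lower, and no Langerhans, macrophage or basal marker was called. The part of these cell types in the rise of Mt2, Rasd1, Errfi1 and Klf9 was not tested. Aged replicate 2, the library with the highest Fkbp5, had the lowest summed Langerhans, macrophage and basal markers of the 4 aged ZT20 libraries. Aged replicate 1, the next highest in Fkbp5, had 206 CPM of Langerhans markers, above every adult ZT20 library. The part of these cell types in the level of Fkbp5 was not tested either.

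**Figure D5:**
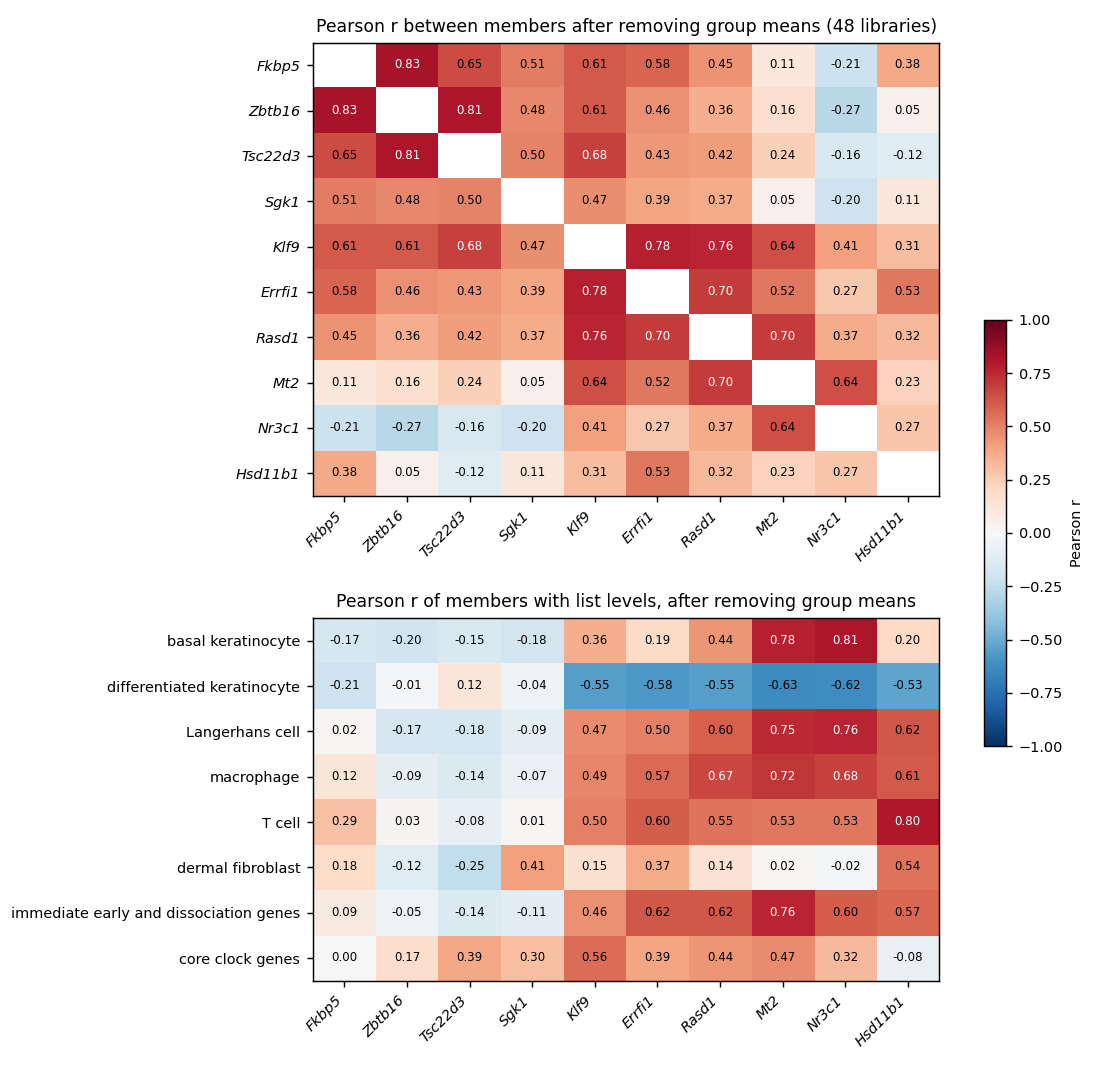
Pearson r over 48 libraries after group means were removed, between the 10 genes (upper panel) and between each gene (columns) and the level of each marker or gene list (lower panel). Fkbp5, Zbtb16 and Tsc22d3 have r of 0.65 to 0.83 with each other, and Klf9 has 0.61 to 0.68 with each of them. With basal keratinocyte markers Fkbp5, Zbtb16 and Tsc22d3 lie between -0.20 and -0.15, while Mt2 and Nr3c1 are at 0.78 and 0.81.

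By likeness of log2 CPM over the 48 libraries, the genes closest to Fkbp5 were Zbtb16 (r = 0.91), the Krüppel-like factor gene Klf13 (0.88) and Pik3r1 (0.83), a regulatory subunit of phosphoinositide 3-kinase. The genes closest to Nr3c1 were Dram1 (0.86), Ccdc3 (0.85) and Cbr2 (0.84), none of which passed the age test (lowest adjusted p 0.377, Dram1). The median r with all genes was 0.02 for Fkbp5 and 0.01 for Nr3c1.

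Other genes induced by glucocorticoids were taken from a list that shares no gene with the 10. Of 23 tested at ZT20, 11 were called higher, 12 were not called and none was called lower. Their median log2 fold change was 0.63, and the shares of all genes were 9.54% higher and 10.5% lower. Without the pair none of 24 tested was called at ZT20 (median 0.43), against 1.58% and 0.951% of all genes. Over all times 7 were called higher and 1 lower, against 17.0% and 16.2% of all genes. Over all times without the pair 5 were called higher and 3 lower, against 14.44% and 14.97% of all genes. Plin4, a lipid droplet coat protein gene, rose by 0.63 over all times (SE 0.14; adjusted p = 7.2e-04) and by 1.58 at ZT20, and the clock gene Per1 by 0.42 (SE 0.11; adjusted p = 0.00223) and 1.34. Mfsd2a, a transporter of lysophosphatidylcholine, rose by 0.29 over all times. Angptl4, which inhibits lipoprotein lipase, fell by 0.75 over all times (SE 0.22; adjusted p = 0.00727), with 0.30 at ZT20 (adjusted p = 0.710). Of 17 inflammatory genes that glucocorticoids are known to repress, 15 passed the filter and were tested. Of these 15, 3 were called higher and 1 lower over all times, a share higher that was near the 17.0% of all genes. The chemokine gene Ccl20 rose by 0.67, the prostaglandin synthase gene Ptgs2 by 0.78 and the adhesion gene Icam1 by 0.42, while the chemokine gene Ccl2 fell by 0.78. At ZT20 Icam1 was called, at 1.17 (adjusted p = 0.0224), and none was called lower; without the pair none was called in either direction.

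Several genes for the receptor's chaperones fell at ZT20. Of 16 chaperones and coregulators, 1 was called higher and 6 lower there, against 9.54% and 10.5% of all genes. Over all times 2 were called higher and 5 lower, against 17.0% and 16.2%. Fkbp4, whose product exchanges with that of Fkbp5 on the receptor and carries it to the nucleus, fell by 0.27 over all times (SE 0.04; adjusted p = 4.6e-06) and by 0.62 at ZT20 (SE 0.10). Stip1, which links HSP70 to HSP90, fell by 0.22 and at ZT20 by 0.80 (SE 0.13), and Hsp90ab1, an HSP90 gene, by 0.13 and at ZT20 by 0.34 (SE 0.07). Nr3c2, the mineralocorticoid receptor gene, which also binds corticosterone, rose by 0.23 over all times (SE 0.05; adjusted p = 2.1e-04) and by 0.31 at ZT20 (SE 0.11; adjusted p = 0.0398). Without the pair, none of the 16 was called higher and 2 lower at ZT20, against 1.58% and 0.951% of all genes.

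Of 15 genes listed for steroid synthesis and conversion, only 9 passed the filter on low counts and were tested. Of these 9, 7 were called higher and 1 lower in aged epidermis over all times. The shares of all genes were 17.0% and 16.2%. Cyp21a1, the 21-hydroxylase gene, rose by 1.02 (SE 0.14; adjusted p = 9.9e-07); a near-identical pseudogene exists, so its reads are uncertain. Mc2r, the ACTH receptor gene, rose by 1.31 (SE 0.26; adjusted p = 2.2e-04), Star, which carries cholesterol into mitochondria, by 0.33 (SE 0.07; adjusted p = 2.4e-04) and the drug and steroid exporter gene Abcb1a by 0.36 (SE 0.09; adjusted p = 0.00216). At ZT20 3 were called higher and 1 lower, and without the pair 1 higher and none lower; over all times 7 were called higher and none lower without the pair. Of 16 immediate early and dissociation genes 11 were called higher and 2 lower over all times, against the same 17.0% and 16.2%. Egr3 rose by 0.60 (SE 0.10), Fosb by 0.63 (SE 0.12) and Ier2 by 0.41 (SE 0.09), and the heat shock gene Hspa1a, which has a near-identical neighbour, fell by 0.27 (SE 0.06). Of 18 core clock genes, 11 were called higher and 2 lower over all times, again against 17.0% and 16.2%. Clock rose by 0.15 (SE 0.03), Tef by 0.28 (SE 0.06), Per2 by 0.47 (SE 0.11) and Nr1d2 by 0.33 (SE 0.08). At ZT20 10 of the immediate early genes were called higher and 2 lower, and 8 of the clock genes higher and none lower. Without the pair these counts were 2 higher and none lower, and none in either direction. The shares of all genes at ZT20 were 9.54% higher and 10.5% lower, and 1.58% and 0.951% without the pair.

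The labelled tissue was checked against its markers. All 5 basal and all 5 differentiated keratinocyte markers were detected in both ages, with summed levels of at least 3522 CPM in every library. Of the other cells that a suspension could hold, 4 sebocyte markers summed to 584 to 1302 CPM in aged and 600.4 to 1351 CPM in adult libraries, and 5 Langerhans markers to 40.6 to 350.4 CPM in aged and 34.5 to 367 CPM in adult libraries. T cell markers summed to 26.3 to 88.1 CPM in aged and 20.9 to 83.8 CPM in adult libraries. The 6 dermal fibroblast markers summed to 3.62 to 72.3 CPM in aged and 2.52 to 51.8 CPM in adult libraries, 4 melanocyte markers to 14.9 to 44.2 CPM in aged and 14.7 to 48.1 CPM in adult libraries, and 4 endothelial markers to 0.222 to 2.59 CPM in aged and 0.186 to 1.77 CPM in adult libraries. Over all times 2 of 5 basal keratinocyte markers were called higher in aged libraries. Of 5 differentiated keratinocyte markers, 1 was called higher and 2 lower. Of all genes, 17.0% were called higher and 16.2% lower. In addition 1 of 5 T cell and 1 of 4 macrophage markers were called higher. None was called of 5 Langerhans, 6 fibroblast, 4 melanocyte, 4 sebocyte and 3 red blood cell markers. None was called either of the markers that passed the filter for endothelial cells (3 of 4), skeletal muscle (3 of 4), mast cells (1 of 4) and adipocytes (1 of 5).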

How the data were processed

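The values were raw counts per gene as deposited by the authors. Per the submitters' processing notes, Trim Galore, STAR 2.7.10a and featureCounts were named, with mm10 (GRCm38); how strand was set, and which annotation was used, is not given in the sources used here. Per the labels, libraries came from a stranded total RNA kit with ribosomal RNA removal, so unspliced RNA can be counted. Totals ran from 40761084 to 49229498 (median 45299730), and the fewest counts in a library were 5 for Hsd11b1, 45 for Rasd1 and 428 for Fkbp5, so counting error weighs most on Hsd11b1 and then Rasd1. RefSeq GRCm38.p6 named 23476 of 24996 identifiers; the other 1520 held 3.66% of counts.

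Counts were fitted in edgeR 4.0.16 (R 4.3.3; TMM scaling, filterByExpr with a minimum count of 10 and total of 15, robust quasi-likelihood F tests) with 1 mean per group or a 24 h cosine per age. All p-values are two-sided, adjusted by Benjamini-Hochberg over 18044 genes and called under 0.05. Log2 CPM used a prior count of 2. DESeq2 1.42.0 and limma 3.58.1 were alternatives, beside other scaling, filters, a replicate block and left-out libraries. Scripts were tested on simulated data. No 2 libraries of a group agreed within sampling noise. The genes and lists were chosen with earlier results of these data known. The text names all 10 genes and, from each list, the 4 with the smallest p over all times.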

Additional observations from a re-analysis of the deposited data

Results flagged for a closer look

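In 3 of 120 groups of 4 libraries, 1 library lay apart from the other 3; chance gives about 1 group in 20. Nr3c1 had 202 CPM in adult ZT4 replicate 1, against 164 to 169 CPM in the other 3. Fkbp5 had 35.4 CPM in aged ZT12 replicate 2, against 49.7 to 51.8 CPM in the others. Tsc22d3 had 278 CPM in adult ZT20 replicate 2, against 77.4 to 97.3 CPM in the others; without that library its log2 fold change at ZT20 was the highest of all fits that left out 1 library, at 2.04.

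The age effect of Rasd1 differed between times (adjusted p = 0.0451, edgeR). The age effect at ZT20 minus that at the other times was 1.97 for Rasd1, 1.78 for Fkbp5, 1.36 for Tsc22d3, 1.01 for Klf9 and 0.78 for Errfi1 on the log2 scale. None of these 5 differences was called without aged ZT20 replicates 1 and 2.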

How the results depend on the processing

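Calls of the 10 genes over all times (5) were the same genes with DESeq2, limma, DESeq2 size factors, both filters (the stricter one leaves out Hsd11b1) and the replicate block; 4 remained without the ZT20 pair and 3 without ZT20. At ZT20 the 7 calls held with each of those tools and numbered 1 without the pair, where Nr3c1 had 0.061 and Sgk1 -0.088 at ZT20, and Nr3c1 0.018 at ZT20 against the other times. Leaving out 1 library at a time, Nr3c1 at ZT20 ran from -0.088 to 0.030. The joint test of age by time called 3 genes with DESeq2 and 0 with no filter, limma, the replicate block, no pair or no ZT20. ZT20 against the other times called 7 with DESeq2 or the stricter filter, 3 with no filter or limma and 0 without the pair. At ZT16, DESeq2 and the fit without the pair called 1; the 8 libraries alone called 1 at ZT0 and 1 at ZT8, Rasd1 in both. With 1 mean per time, 5 genes were called in adult and 7 in aged epidermis. Leaving out each library in turn gave 5 to 6 calls over all times, 0 to 5 in the joint test, 0 to 8 at ZT20 against the other times, 7 to 8 at ZT20, 5 to 6 rhythms in aged and 2 to 3 in adult epidermis, and 0 before ZT20 and for the difference of rhythms. Causes were not tested.

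Genes called at ZT20 numbered 3616, and 463 without the pair; over all times 5976, and 3461 without ZT20. The joint test called 51 genes (663 DESeq2, 29 no filter, 92 stricter filter, 30 limma, 13 without the pair, 12 without ZT20), ZT20 against the other times 301 (772, DESeq2; 170, no filter; 1, without the pair), and the difference of rhythms 0 (34, DESeq2; 3, without ZT20). At ZT0, ZT4, ZT8, ZT12 and ZT16, edgeR called 804, 114, 395, 199 and 355 genes, and 2407, 24, 157, 8 and 28 with the 8 libraries alone; DESeq2 called 177 at ZT4, 597 at ZT8, 349 at ZT12 and 690 at ZT16. Aged and adult libraries that share a time and a replicate number were compared after group means were removed. Of these 24 pairs, 13 had r over 0.1 (median 0.11, range -0.47 to 0.54). Whether replicate numbers mark shared handling was not tested, and the main fits hold no term for it.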
